A study of Mus musculus with 9 samples.

Results

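The data described here are the transcripts of 7 lipocalin genes (Lcn5, Lcn6, Lcn8, Lcn9, Lcn10, Lcn12 and Obp2a) in single cells of the mouse epididymis. They were taken by name from a table of 32195 genes, and all 7 had a row. Cells of the caput, corpus and cauda, the successive segments of the duct, were isolated from untreated C57BL/6 males at postnatal day 42 (P42) and at day 56 (P56), and were counted by unique molecular identifiers (UMIs), which tag single transcript molecules. Each segment had 1 library at P42 and 2 at P56, and tissue of 5 mice was pooled for each, so the libraries of a pool share their animals. The 9 libraries held 4971 to 4997 barcodes and 23114756 to 50655384 UMIs, and pairs of libraries shared 2 to 35 barcodes. After removal of low-quality and globin-rich cells, 41425 cells remained, of which 18551 were principal cells, the secretory cells that line the duct. The P42 cauda library stood apart, with only 53 cells named principal and 142157 UMIs in them. Another 1659 of its cells, in a cluster of few UMIs, passed the marker rule for principal cells but stayed unnamed. Every principal-cell value of the P42 cauda rests on the 53 cells.

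Lipocalins are small secreted proteins that fold into a barrel around a pocket for lipophilic molecules such as retinoids, steroids and odorants. In the mouse epididymis a group of them is secreted by principal cells into the lumen, where they meet the maturing sperm. Lcn5 and Lcn12 are known to bind retinoic acid, Lcn8 is a close relative of Lcn5, Lcn6 has been found on the sperm surface, Lcn9 and Lcn10 are epididymal lipocalins of less defined cargo, and Obp2a belongs to the odorant-binding branch of the family.

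All 7 genes lie on mouse chromosome 2 (GRCm38, GENCODE annotation), and none of them overlaps another annotated gene. Lcn8 (ENSMUSG00000036449, chr2:25653120-25656217), Lcn5 (ENSMUSG00000026937, chr2:25657952-25661977), Lcn6 (ENSMUSG00000045684, chr2:25676786-25681608), Lcn10 (ENSMUSG00000047356, chr2:25682726-25686081) and Obp2a (ENSMUSG00000062061, chr2:25700043-25703326) follow each other on the plus strand. The 5 genes span 50207 bases with no other annotated gene between them, and Lcn8 ends 1734 bases before Lcn5 starts. Lcn9 (ENSMUSG00000023210, chr2:25823153-25825537) is on the same strand, 119826 bases beyond Obp2a, and Lcn12 (ENSMUSG00000026943, chr2:25490845-25493911) is on the minus strand, 159208 bases before Lcn8. The stretch from Obp2a to Lcn9 also holds the lipocalin genes Obp2b, Lcn3 and Lcn11.

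The 150 bases before the RefSeq transcription start (GRCm38.p6) are shown for Lcn8 (chr2:25652968-25653117) and Lcn9 (chr2:25823003-25823152), the pair with the highest UMI counts, for Lcn5 (chr2:25657802-25657951), which was concentrated in other cells than Lcn8, and for Lcn12 (chr2:25493912-25494061, minus strand), the gene that was also high in the cauda. Capitals mark matches, on either strand, to TATAAA (known as the TATA box), TGTTTA (forkhead factors), AGAACA (androgen receptor) or TTGCNNAA (C/EBP factors). All 7 genes had a promoter entry.
Lcn8: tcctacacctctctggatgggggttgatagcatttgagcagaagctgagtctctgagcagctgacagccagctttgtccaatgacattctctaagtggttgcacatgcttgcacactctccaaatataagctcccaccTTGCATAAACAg
Lcn9: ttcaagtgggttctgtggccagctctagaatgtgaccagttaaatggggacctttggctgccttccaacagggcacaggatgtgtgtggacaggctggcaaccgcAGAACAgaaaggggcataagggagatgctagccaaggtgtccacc
Lcn5: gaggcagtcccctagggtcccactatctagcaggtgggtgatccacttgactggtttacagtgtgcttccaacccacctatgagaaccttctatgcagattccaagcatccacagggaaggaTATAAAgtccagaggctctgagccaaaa
Lcn12: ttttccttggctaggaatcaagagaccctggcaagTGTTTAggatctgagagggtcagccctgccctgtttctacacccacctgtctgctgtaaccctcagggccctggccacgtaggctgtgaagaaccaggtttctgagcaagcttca
Lcn8 had a C/EBP match at position -12 and an overlapping forkhead match at position -7, counted from the start. Lcn5 had the TATA box at position -28, Lcn9 the androgen receptor motif at position -45 and Lcn12 the forkhead motif at position -115. In the full 250 bases before the start, the androgen receptor motif also matched in Lcn6, Lcn10 and Lcn12, and the TATA box also in Obp2a. Among all 32851 promoters of the table, 12.4% held the TATA box, 12.03% the forkhead motif, 16.1% the androgen receptor motif and 9.56% the C/EBP motif within the same length, so that no motif was shared by the 7 genes and each was common elsewhere.

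To examine where along the duct each gene was transcribed, UMIs were first summed over all cells of a library and scaled to the library total as UMIs-per-million (CPM). In such sums, fewer cells of a type and less RNA per cell cannot be told apart. UMI levels are not divided by transcript length, so they are compared between libraries for 1 gene and not between genes. The 7 genes together took 2.52% of all UMIs in the caput at P42 and 4.43% and 4.06% in the P56 pools. In the corpus they took 0.0610% to 0.239%, and in the cauda 0.0222% to 0.0494%.

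Lcn8 reached 9723 CPM in the P42 caput and 17965 and 16409 CPM in the P56 caput. The corpus libraries gave 25.9 CPM at P42 and 21.2 and 9.48 CPM at P56, and the cauda libraries 32.1, 10.6 and 11.4 CPM. Every caput library was thus far above every other library, while corpus and cauda overlapped. The fitted difference (log2, edgeR quasi-likelihood test with the pool as a block) was 9.60 ± 0.65 (SE) between caput and corpus, with adjusted p = 0.000254, and 0.01 ± 0.46 between corpus and cauda, with adjusted p = 0.995. Lcn9, which lies far from Lcn8 on the chromosome, followed the same course. Its caput libraries gave 10957, 18978 and 16528 CPM, its corpus libraries 32.8, 28.8 and 9.29 CPM and its cauda libraries 39.0, 14.1 and 13.3 CPM. Its caput to corpus difference was 9.40 ± 0.66, with adjusted p = 0.000274.

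Lcn6, Lcn10 and Obp2a kept the same order of segments at lower counts. Lcn6 measured 1126 ± 165 CPM (SD, n = 3) in caput libraries, 2.94 ± 1.36 in corpus and 1.73 ± 1.81 in cauda libraries. Lcn10 was the steadiest member in the caput, with 823 CPM at P42 and 889 and 857 CPM at P56, and it stayed at or below 2.01 CPM in the cauda. Obp2a gave 107 ± 22.2 CPM in the caput, from 10204 UMIs, against 15 UMIs in the whole corpus and 9 in the whole cauda. Its near neighbour in sequence, Obp2b, had 1.63 to 2.27 CPM in the caput, and how reads shared by the Obp2a and Obp2b genes were counted was not examined. In principal cells of the cauda no UMI of Obp2a was found, so the caput level was at least 1479.6-fold higher, with the floor set at 3 UMIs over the 3 cauda libraries together.

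Lcn5 had a longer range along the duct. It gave 2084, 4854 and 5580 CPM in the caput, and 1021, 2234 and 462 CPM in the corpus. Caput and corpus overlapped, since the first P56 pool of the corpus was above the P42 caput. In the cauda Lcn5 fell to 8.70, 4.47 and 4.99 CPM, and the difference between corpus and cauda was 7.40 ± 0.71 on the log2 scale, with edgeR adjusted p = 0.00397. The difference between caput and corpus, 1.72 ± 0.56, had adjusted p = 0.0720 in all cells and did not pass the threshold, though DESeq2 (adjusted p = 0.00448) and the fit without P42 (0.00577) passed it. Without the first or the second P56 pool the difference between corpus and cauda was 6.72 or 7.69, with adjusted p = 0.0888 or 0.0502.

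Lcn12 followed neither course. Its caput values were 307, 281 and 202 CPM, its corpus values 78.4, 100.3 and 127 CPM, and its cauda values 136, 397 and 463 CPM. The corpus was lowest in every pool, and the order of caput and cauda changed between P42 and P56. In all cells its difference between segments had adjusted p = 0.0680 and was not called, while DESeq2 (adjusted p = 0.00530) and edgeR without the P42 pool (0.000147) called it. Calls between segments required an F test with adjusted p below 0.05 and segment means at least 1 apart on the log2 scale. By this rule 6 of the 7 members were called, all highest in the caput, beside 24.7% of the 18478 genes tested that were called and 11.3% that were called and highest in the caput. By single contrasts, 16.3% of genes were called between caput and corpus and 8.26% between corpus and cauda.

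**Figure D1:**
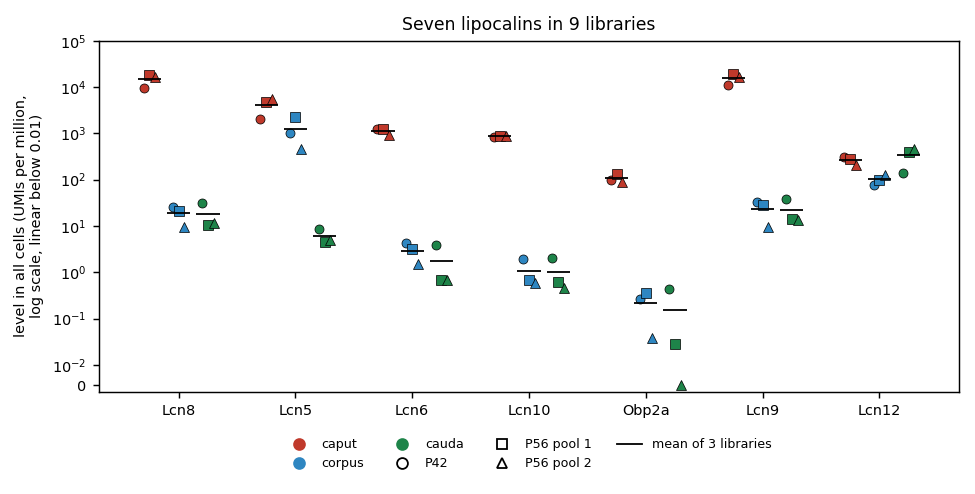
Level of each lipocalin in all cells of each library (vertical axis, UMIs-per-million on a log scale that is linear below 0.01; points are single libraries, colours are segments, shapes are ages and pools, and bars are means of 3 libraries). The caput points of Lcn8, Lcn9, Lcn6, Lcn10 and Obp2a lie far above the other segments, Lcn5 stays at 462 CPM or more in the corpus, and Lcn12 is lowest in the corpus.

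In principal cells alone all 7 members were called between segments, beside 38.8% of the 15286 genes tested, 6 of them highest in the caput (17.3% of genes were) and Lcn12 highest in the cauda (9.81% were). Lcn5 gave 3180, 5872 and 8036 CPM in principal cells of the caput and 1622, 2966 and 697 CPM in those of the corpus. Here the difference of 1.67 ± 0.52 (log2) passed the test, with adjusted p = 0.0248, but without the first or the second P56 pool it had adjusted p = 0.0544 or 0.348. Lcn12 gave 482, 332 and 280 CPM in the caput, 127, 118 and 146 CPM in the corpus and 504 and 560 CPM in the P56 cauda, beside 246 CPM in the 53 cells of the P42 cauda. It was 1.90 ± 0.44 lower (log2) in the corpus than in the cauda, with adjusted p = 0.0121, and 1.42 ± 0.43 higher in the caput than in the corpus, with adjusted p = 0.0212. Among all genes, 28.5% were called between caput and corpus and 14.8% between corpus and cauda in principal cells. The call of Lcn12 was lost without the first P56 pool (adjusted p of the F test 0.153) and without the second (0.0567).

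Principal cells were then divided by their own genes, with all lipocalins left out of the genes used for clustering. The subpopulations were named by their leading genes only, and because they are clusters the levels in them are a description with no test. Of the caput subpopulations, the 3215 cells led by Teddm2, Adam28 and Cst12 carried most of the Lcn8. These cells gave 22619 CPM of Lcn8 at P42 and 30319 and 31749 CPM at P56, and held 76.5%, 66.9% and 61.6% of the Lcn8 UMIs of caput principal cells in 44.2%, 43.2% and 33.5% of the cells. Lcn9 was shared in the same way, with 74.3%, 64.8% and 61.3% of its UMIs in these cells.

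Lcn5 was concentrated in other cells of the same libraries. The subpopulation led by Pate13, Defb15 and Spink2 (2847 cells) gave 7934 CPM of Lcn5 at P42 and 15879 and 19174 CPM at P56. It held 84.0%, 86.8% and 91.5% of the Lcn5 UMIs of caput principal cells but only 6.91%, 9.18% and 7.67% of the Lcn8 UMIs. Conversely, the Teddm2 subpopulation gave 627, 1099 and 970 CPM of Lcn5. In the corpus Lcn5 was concentrated in a subpopulation led by the protease inhibitors Spint4 and Spint5 (1152 cells), which gave 7925 CPM of Lcn5 at P42 and 13219 and 7766 CPM at P56, against 343, 304 and 96.9 CPM in the larger corpus subpopulation led by Defb22, Bsph2 and Car4.

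The Spint4 subpopulation held 80.5%, 89.6% and 86.9% of the Lcn5 UMIs of corpus principal cells. Lcn8 was low in both, at 15.5 to 28.1 CPM in the Spint4 cells and 7.53 to 21.7 CPM in the Defb22 cells. It made up 14.9% of corpus principal cells at P42 and 26.5% and 9.72% in the P56 pools. This order of the 3 libraries was also that of Lcn5 in the whole corpus. The level of Lcn5 within the Spint4 cells had the same order, but it was close at P42 and in the second P56 pool (7925 and 7766 CPM). The separate parts of the share of cells and the level within them in the corpus level were not tested.

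Lcn6 was highest in another caput subpopulation, the 962 cells led by the beta-defensin genes Defb47 and Defb18. It gave 3068, 2679 and 2645 CPM there, against 1813, 1255 and 1243 CPM in the Teddm2 cells and 1228, 942 and 547 CPM in the Pate13 cells. Obp2a gave 295, 236 and 195 CPM in the Defb47 cells, 165, 177 and 143 CPM in the Teddm2 cells and 44.0, 48.1 and 27.1 CPM in the Pate13 cells. Lcn10 was close in the Defb47 cells (1512, 1166 and 1260 CPM) and the Teddm2 cells (1788, 1376 and 1556 CPM) and low in the Pate13 cells (269, 306 and 214 CPM).

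Lcn12 shared the Pate13 cells with Lcn5, and they held 65.9%, 65.3% and 71.9% of its UMIs in caput principal cells. It gave 943, 675 and 525 CPM there, 693, 425 and 396 CPM in the Defb47 cells and 98.0, 84.5 and 58.8 CPM in the Teddm2 cells. Unlike Lcn5 it was low in the corpus Spint4 cells, at 115, 132 and 71.8 CPM, and high in the cauda cells led by Serpine2 and Spink14, at 508 and 566 CPM in the P56 pools. A further subpopulation of 795 cells was led by clear-cell genes such as Atp6v1g3, which gave 14658, 21529 and 21574 CPM of Lcn8, and leaving them out changed no call between segments in principal cells.

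**Figure D2:**
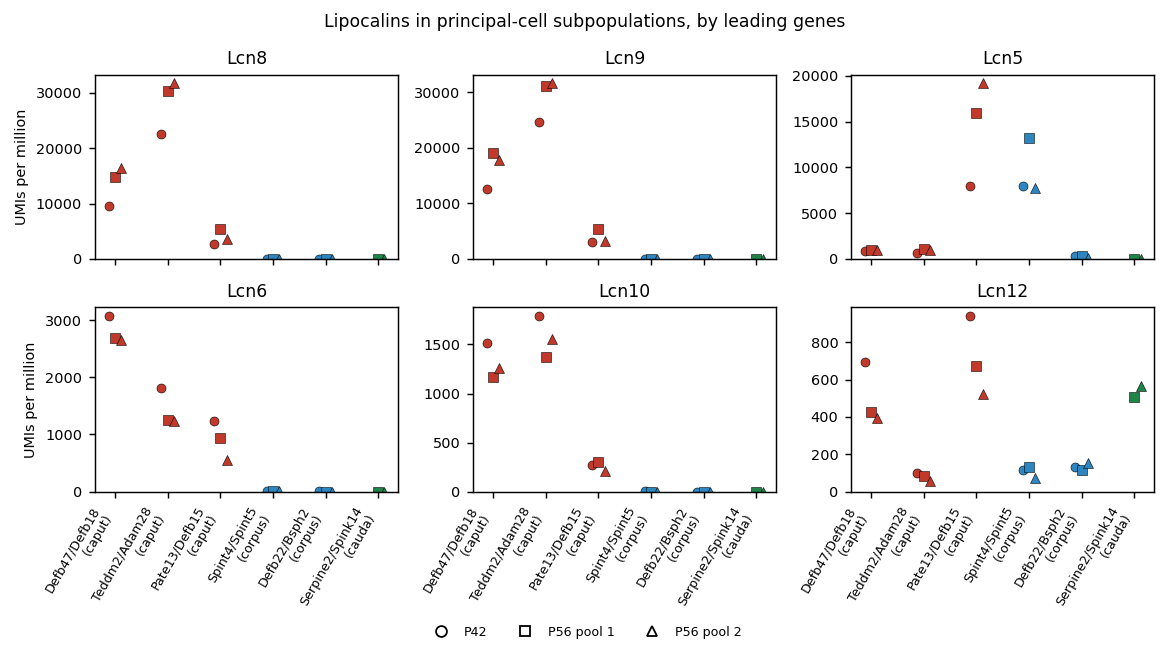
Levels (vertical axes, UMIs-per-million) of 6 lipocalins in principal-cell subpopulations named by their leading genes (horizontal axis), each shown for the libraries of its own segment with at least 20 cells, with shapes for age and pool. Lcn8 and Lcn9 peak in the Teddm2 cells, Lcn5 in the Pate13 and Spint4 cells, Lcn6 in the Defb47 cells, and Lcn12 in the Pate13 and Serpine2 cells.

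The same separation was seen cell by cell. Each caput principal cell was thinned at random to 1000 UMIs, which removes differences in depth and left 1623, 3498 and 2899 cells in the 3 libraries. The median cell held 12, 20 and 17 UMIs of Lcn8 and 14, 20 and 16 of Lcn9, while the median for Lcn5 was 1 in each library and its 90th percentile was 10, 23 and 28. Lcn5 was thus low in most caput principal cells and high in a minority.

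Lcn8 and Lcn9 rose and fell together over cells, with Spearman correlations of 0.866, 0.777 and 0.849 in the 3 libraries. In non-epithelial cells of the same libraries this pair gave 0.703, 0.809 and 0.760. Lcn8 and Lcn5 ran in opposite directions in principal cells, with correlations of -0.496, -0.475 and -0.650, while non-epithelial cells gave 0.0294, -0.215 and -0.172. These are descriptions over cells that share a library and a depth, and counts that sum to a fixed total push correlations between abundant genes below 0. After thinning to 1000 UMIs, 93.0%, 97.5% and 88.1% of the principal cells with an Lcn5 UMI also held one of Lcn8. Of those with Lcn8, 60.6%, 74.1% and 67.8% held one of Lcn5, so both were detected in most cells and differed in amount. Thinned caput macrophages held an Lcn8 UMI in 94.4% to 100% and an Lcn5 UMI in 50.2% to 69.6% of cells. Detection of both therefore does not by itself mark a cell as expressing both. Cells with at least 10 UMIs of both genes were few, at 7 of 1623, 109 of 3498 and 81 of 2899, although 898, 2344 and 1691 cells had at least 10 of Lcn8 and 171, 686 and 855 at least 10 of Lcn5.

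Of the other pairs, Lcn10 went with Lcn8 (0.393 to 0.499) and against Lcn5 (-0.450 to -0.333). Lcn12 went weakly with Lcn5 (0.169 to 0.212) and against Lcn8 (-0.447 to -0.341). Lcn6 varied from 0.0570 to 0.250 with Lcn8 and from -0.372 to -0.262 with Lcn5. Obp2a was found in 8.14% to 11.9% of thinned cells, and its correlations with the other members lay between -0.125 and 0.145, too sparse to read.

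**Figure D3:**
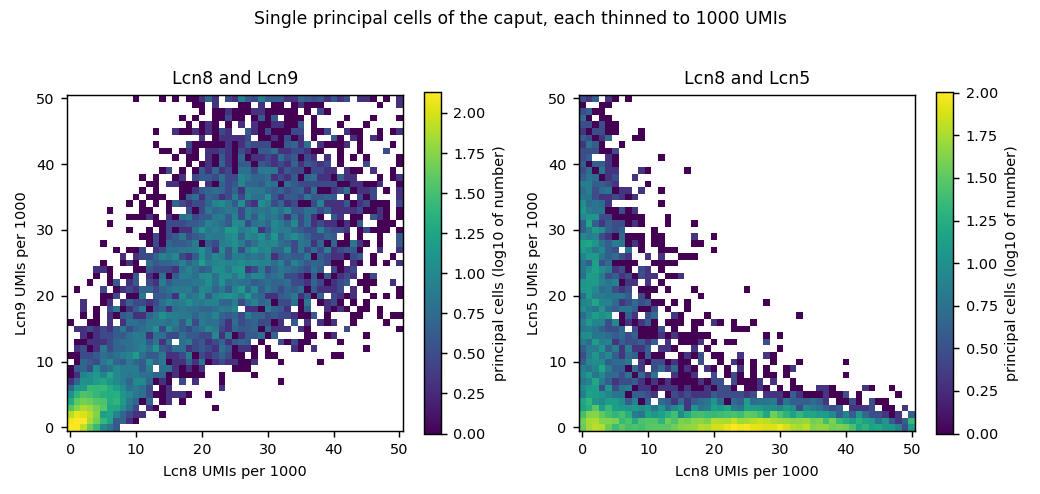
Number of caput principal cells (colour, log10) by UMIs of Lcn8 (horizontal axis) and of Lcn9 (left) or Lcn5 (right, vertical axes), with every cell thinned to 1000 UMIs, the 3 caput libraries pooled and counts above 50 drawn at 50. Lcn8 and Lcn9 lie along a diagonal, while Lcn8 and Lcn5 lie along the axes, with 7, 109 and 81 cells of the 3 libraries at 10 or more of both.

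The third question was how much lipocalin signal cells outside the principal population carried. Lcn8 was higher in caput macrophages and monocytes than in principal cells in both P56 pools, and lower at P42. Macrophages and monocytes gave 9397 CPM at P42 and 20414 and 23569 CPM at P56, against 13307, 18977 and 17497 CPM in principal cells. Principal cells here are all their subpopulations together. Within them, the Teddm2 cells were above macrophages in every library (22619, 30319 and 31749 CPM) and the Pate13 cells below (2729, 5426 and 3500 CPM). With the clustering resolution doubled, 346 cells named macrophages and monocytes formed a cluster whose top 10 genes included Adam28, Teddm2, Cst12 and Cstdc2. It held 64, 56 and 206 caput cells, beside 248, 112 and 257 caput macrophages and monocytes at the first resolution. Their mean caput level of Lcn8 was 17793 CPM before and 17692 CPM after doubling. Fibroblasts and myoid cells gave 6719, 18028 and 19449 CPM, endothelial cells 4724, 15346 and 13160 CPM, and halo and T cells, with 12 to 44 cells a library, 11297, 21492 and 24196 CPM. Basal cells (4428, 15280 and 11821 CPM) and clear and narrow cells (3769 to 7213 CPM) were below principal cells in every library. The basal value depended on the clustering, and with the resolution doubled basal cells gave 2974, 5640 and 3208 CPM.

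After thinning to 1000 UMIs, 94.4%, 100% and 99.6% of caput macrophages held an Lcn8 UMI, against 95.1%, 97.8% and 91.2% of principal cells, at median depths of 4960, 5180 and 6550 UMIs in macrophages and 7065, 6137 and 6582 in principal cells. The shares lay close together in both, so a detected Lcn8 UMI does not by itself mark a caput cell as expressing the gene, and the source of the UMIs in macrophages was not tested. In the 4 non-epithelial populations together (macrophages, fibroblasts, endothelial cells and T cells) 17.0%, 65.4% and 72.2% of cells held at least 10 Lcn8 UMIs, while 55.3%, 67.0% and 58.3% of principal cells did.

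Lcn5 behaved differently from Lcn8 in these cells. At least 10 UMIs of Lcn5 were found in 0.388%, 3.63% and 3.63% of non-epithelial cells, against 10.5%, 19.6% and 29.5% of principal cells. Its summed level in the non-epithelial cells was 30.8%, 34.0% and 21.6% of that in principal cells, and that of Lcn12 was 34.2%, 51.9% and 32.5%. The corresponding values were 50.4%, 96.1% and 115% for Lcn8, 50.3%, 95.4% and 118% for Lcn9, 44.9%, 84.8% and 109% for Lcn10, 41.7%, 85.5% and 99.8% for Obp2a and 44.3%, 76.1% and 82.8% for Lcn6.

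The 10 most abundant other transcripts of caput principal cells gave a scale for these values. Genes with mitochondrial, ribosomal protein and globin names were left out, as were names that start with Rn or with Gm and a digit. Gpx5, an epididymal glutathione peroxidase, stood at 41.4%, 76.8% and 83.9% of its principal level in non-epithelial cells, and the cystatin Cst8 at 53.6%, 96.2% and 115%. Over the 6436 genes with at least 10 CPM in caput principal cells the medians were 111%, 106% and 105%, and the 5th percentiles 49.7%, 69.2% and 69.1%. Among the 10 transcripts, Spag11b, Defb20, Defb48, Cstdc2 and Defb25 also rose from P42 to the first and then the second P56 pool. Tmsb4x rose less, at 94.95%, 104% and 108%. Itm2b (66.4%, 75.4% and 73.0%) and CT010467.1 (118%, 133% and 113%) did not keep this order. Lcn8 in non-epithelial cells therefore moved across the libraries with Cst8 and some other abundant transcripts of principal cells, but not with all 10. Lcn5 and Lcn12 lay below the 5th percentile in every caput library, as Lcn6, Lcn10 and Obp2a did at P42.

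The composition of the signal was also compared across populations within a library. For each Lcn8 UMI, principal cells held 1.12, 1.06 and 1.002 UMIs of Lcn9. The 4 non-epithelial populations held 1.11 to 1.14, 0.952 to 1.16 and 0.985 to 1.06, ranges that included the principal value. For every 100 UMIs of Lcn8, Lcn10 had 8.90, 5.06 and 5.33 UMIs in principal cells. The non-epithelial populations were lower in every library, at 7.20 to 8.34, 4.14 to 4.64 and 4.87 to 5.22. Lcn6 was lower there too, at 8.64 to 13.2, 4.09 to 6.30 and 4.13 to 5.61, against 13.4, 7.19 and 6.24 in principal cells. Lcn5 had 23.9, 30.9 and 45.9 UMIs for every 100 of Lcn8 in principal cells. In the non-epithelial populations it was lower and varied more, at 5.59 to 22.5, 4.93 to 23.5 and 4.43 to 21.8. Lcn12 likewise had 3.62, 1.75 and 1.60 UMIs in principal cells and 1.10 to 3.34, 0.526 to 1.28 and 0.329 to 0.776 in the others. Whether the lipocalin UMIs of non-epithelial cells came from free RNA, from principal cells captured with them or from the cells themselves was not tested.

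**Figure D4:**
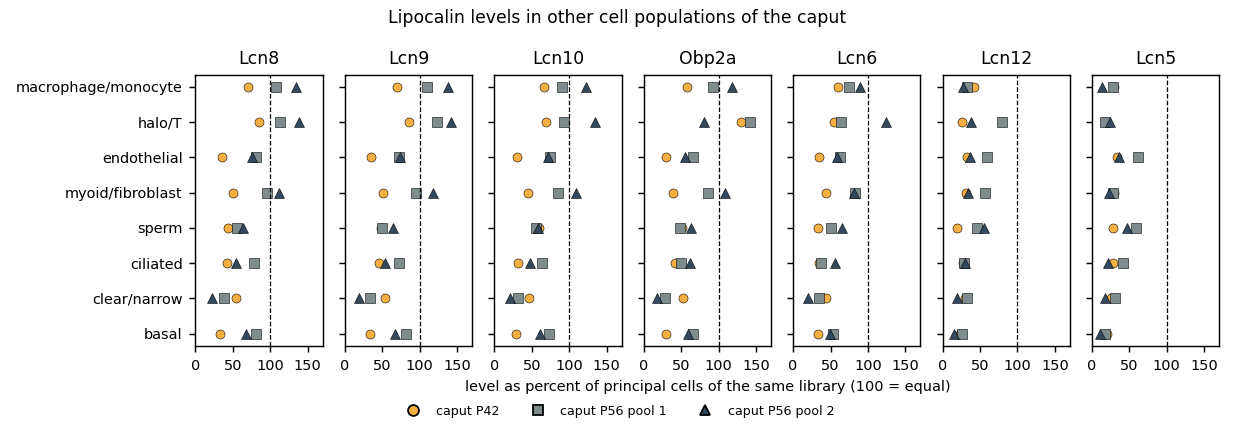
Level of each lipocalin in the other cell populations of the caput (rows) as a percent of the level in principal cells of the same library (horizontal axes, with 100 marking equal levels, and points for single libraries). The level in principal cells is that of all their subpopulations together. Lcn8, Lcn9, Lcn10 and Obp2a pass 100% in macrophages of a P56 pool, while Lcn5 stays below 100% in every named population.

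In the corpus, Lcn8 did not separate principal cells from macrophages. A UMI was found in 1.08% to 3.22% of thinned corpus principal cells (median depth 3273 to 6261 UMIs) and in 2.41% to 3.59% of corpus macrophages (3017 to 4913 UMIs). Corpus levels of Lcn8 were 8.31 to 26.4 CPM in principal cells and 10.4 to 35.3 CPM in macrophages. In the P56 cauda principal cells gave 9.40 and 10.1 CPM of Lcn8 and macrophages 10.4 and 19.6 CPM. In the P42 cauda the 53 principal cells held 33 UMIs, or 232 CPM, against 24.8 CPM in macrophages and 23.3 CPM in myoid cells and fibroblasts, and 11.8% of thinned principal cells had a UMI against 3.12% of macrophages. Lcn5 was found in close shares of both, 38.7%, 42.7% and 16.1% of corpus principal cells and 29.5%, 40.0% and 14.5% of corpus macrophages, but its summed levels were further apart, at 1622, 2966 and 697 CPM and at 450.1, 890 and 285 CPM. Lcn12 in the P56 cauda gave 504 and 560 CPM in principal cells and 357 and 449 CPM in macrophages and monocytes.

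In segment tests within single populations, Lcn5, Lcn6, Lcn8, Lcn9, Lcn10 and Obp2a were called and highest in the caput in basal, clear and narrow, myoid and fibroblast, macrophage and monocyte, endothelial, halo and T, and sperm cells. Lcn12 was called in basal cells (adjusted p = 0.0284), endothelial cells (0.0294) and sperm (0.0248), each time with the fitted level highest in the cauda. At P42, however, caput cells gave more than cauda cells in the basal (112 against 55.0 CPM) and endothelial (158 against 31.2 CPM) populations. The sperm of the cauda came from 2 libraries of 56 and 10 cells, with 45 UMIs of Lcn12. With the resolution doubled its basal level in the P56 cauda was 141 and 117 CPM, against 308 and 382 CPM before, and the test in basal cells was not repeated. The members called were thus 7 of 7 in those 3 populations, beside 15.9%, 8.59% and 29.6% of genes, and 6 of 7 in clear and narrow cells, myoid and fibroblast cells, macrophages and monocytes, and halo and T cells, beside 12.2%, 10.6%, 11.6% and 15.6% of genes. The genes called and highest in the caput were 6.41% in basal, 4.94% in clear and narrow, 5.48% in myoid and fibroblast, 6.05% in macrophage and monocyte, 3.91% in endothelial, 7.78% in halo and T, and 16.9% in sperm cells. UMIs of every member were found in each of these populations of the caput, and their source was not tested. A call in 1 population therefore does not show that its cells made the transcript.

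Between P42 and P56 the members were compared within each segment. There was 1 P42 library a segment, and it was assumed to vary like the P56 pools. All P42 libraries came from the same pool of mice, so age cannot be told apart from that pool or its preparation. Libraries of a pool share their mice but were treated as independent in these fits. Fold changes were fitted with TMM factors, which set the bulk of genes to no change (median log2 change of all genes in the caput 0.01). Without these factors the median moved to -0.35 for caput, -0.60 for corpus and -0.82 for cauda libraries. The changes given here are therefore relative to the bulk of genes.

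No member was called between ages in the caput, in all cells (3.49% of 21275 genes were) or in principal cells (0.686% of 17491 genes were). In all cells 3 members had an unadjusted p under 0.05 in edgeR (24.7% of genes had) and DESeq2 called 1 (4.63% of genes), while in principal cells none had (15.6% of genes had) and DESeq2 called 0 (0.755% of genes). With 1 P42 library the missing calls do not show that levels were alike at both ages. Cells named principal were 1626 of 4083 in the caput at P42, and 3499 of 4846 and 2899 of 4897 at P56. The part of this cell make-up in the changes of all cells was not tested. Lcn8 was higher in both P56 libraries than at P42, as given above, by 1.21 ± 0.39 on the log2 scale, with adjusted p = 0.112. Lcn5 was higher by 1.70 ± 0.71, with adjusted p = 0.188. In principal cells the 2 changes were 0.75 ± 0.38 and 1.40 ± 0.63, with adjusted p = 0.377 and 0.323. Lcn10 in caput principal cells, at 1184 CPM at P42 and 960.0 and 933 CPM at P56, differed by -0.03 ± 0.19, with adjusted p = 0.964.

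In the corpus, Lcn12 was the member called in all cells, beside 10.6% of genes. Its 78.4 CPM at P42 and 100.3 and 127 CPM at P56 gave a rise of 1.19 ± 0.32 (log2) relative to the bulk of genes, with adjusted p = 0.0413. With TMM factors set to 1 the change was 0.53, with adjusted p = 0.159, and was not called. In corpus principal cells no member was called, beside 2.61% of genes, with 2 members at an unadjusted p under 0.05 in edgeR (20.7% of genes) and 1 called by DESeq2.

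In the cauda, where 32.3% of all genes were called between ages, 3 members were called in all cells. Lcn12 rose from 136 CPM at P42 to 397 and 463 CPM at P56, by 2.41 ± 0.34 on the log2 scale, with adjusted p = 0.000815. The named cell make-up of these libraries differed as well, with 53 cells named principal of 4515 at P42 against 2061 of 4851 and 2134 of 4852 at P56. Its part in the rise was not tested, and the P42 count depends on the naming. Within macrophages and monocytes Lcn12 gave 57.2 CPM at P42 and 357 and 449 CPM at P56, within myoid cells and fibroblasts 52.1, 339 and 456 CPM, and within principal cells 246, 504 and 560 CPM. Different clusters held these populations at the 2 ages. Most P42 macrophages were in the clusters led by Ccl8 (544 cells) and Retnla (236 cells) and most P56 ones in that led by Ccl4 (116 and 261 cells), while P42 fibroblasts were mostly in the clusters led by Col1a1 (749 cells) and Col6a5 (372 cells) and P56 ones in that led by Mgp (439 and 368 cells). Of the 53 principal cells at P42, 29 were in the Defb22 subpopulation, 11 in the Serpine2 subpopulation and most others in groups of 1 or 2 cells led by collagen genes, whereas 1906 of 2061 and 1978 of 2134 P56 cells were in the Serpine2 subpopulation. These values therefore do not compare the same kinds of cells. The unnamed cells, 1729 at P42 against 160 and 144, gave 379.5, 371 and 396 CPM. Of those at P42, 1659 were in the low-UMI cluster that passed the principal marker rule. Lcn6 and Lcn10 fell by 1.73 ± 0.45 and 1.14 ± 0.30 from levels of few UMIs. Lcn6 had 72 UMIs in the P42 cauda and 24 and 28 UMIs in the P56 cauda, and Lcn10 had 38, 22 and 19 UMIs. In the 53 principal cells of the P42 cauda against those of P56, 4 members were called (Lcn12, Lcn6, Lcn8 and Lcn9), beside 10.3% of genes. The median change of all genes in that comparison was 1.37, so its values are not read further.

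The fitted change of Lcn12 from P42 to P56 in all cells differed between segments, with age and pool not told apart. It was 2.36 ± 0.43 lower (log2) in the caput than in the cauda, with adjusted p = 0.00884. The fitted change relative to the bulk of genes was 0.05 ± 0.30 in the caput, with adjusted p = 0.935, against 2.41 ± 0.34 in the cauda. With TMM factors of 1 the caput change was -0.35, with adjusted p = 0.361, and the difference from the cauda was -2.003, with adjusted p = 0.00672. Lcn8, Lcn6 and Lcn10 differed in the other direction, beside 18.4% of all genes called for this difference. Between caput and corpus no member was called for a difference of the age effect in all cells by edgeR, beside 0% of genes, where 3 had an unadjusted p under 0.05 (13% of genes had) and DESeq2 called 0 (1.24% of genes). In principal cells none was called either, beside 0.126% of genes, with 3 at an unadjusted p under 0.05 (10.8% of genes) and 0 called by DESeq2 (0.406% of genes). Between caput and cauda 4 were called in principal cells, beside 7.7% of genes, against the same 53 cells.

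Other members of the lipocalin family were read from a list of 26 genes, of which 15 had a row, 11 were tested and 9 were called between segments in all cells, beside 24.7% of all genes. Of these, 6 were highest in caput (11.3% of all genes were), 1 in corpus and 2 in cauda. Lcn2, which binds bacterial siderophores, gave 6262, 6974 and 6499 CPM in the caput, against 107.5 to 415 CPM in the other segments, with adjusted p = 0.00217. Ptgds, the lipocalin-type prostaglandin D synthase and next neighbour of Lcn12 on the chromosome, ran the other way, from 475 to 653 CPM in the caput to 1631 to 5241 CPM in the corpus and 1279, 9615 and 10280 CPM in the cauda, with adjusted p = 0.0199. Apod, an apolipoprotein of the lipocalin fold, and Mup6, a major urinary protein, were highest in the caput, at 360.0 to 394 CPM and 72.7 to 93.8 CPM, with adjusted p = 0.00727 and 4.81e-05. The P42 cauda, with 365 CPM of Apod, overlapped the caput, while the P56 cauda had 144 and 101 CPM.

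The lipocalin genes that lie between Obp2a and Lcn9 were nearly silent. Obp2b stayed at or below 2.27 CPM, Lcn3 at or below 1.05 CPM and Lcn11 at or below 2.55 CPM in every library. Of 6 lipocalin receptor genes, 5 had a row, 4 were tested and 3 were called, beside the same 24.7%. Lrp2, the endocytic receptor megalin, which takes up several lipocalins, was the one above 50 CPM. It gave 4.19 to 11.1 CPM in caput libraries, then 77.0, 129 and 145 CPM (corpus) and 65.2, 218 and 320 CPM (cauda), with adjusted p = 0.00909, so that it was lowest in the segment where Lcn8 was highest.

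Leaving the members themselves out, the genes most like each member were sought over 31 sums of principal cells (a subpopulation in a library with at least 20 cells), among 6558 genes with at least 10 CPM. Lcn9 was most like the cystatin genes Cst8 (Pearson r of log2 values 0.998) and Cstdc2 (0.997) and like Rnase10 (0.994), and Lcn8 was most like the same 3 genes, at 0.993 to 0.996. Lcn6 was most like Defb41 (0.992), Adgrg2 (0.988) and Armcx1 (0.987), Lcn10 like Gm4846 (0.994), Gm36974 (0.993) and Lcn2 (0.993), and Obp2a like Mup6 (0.993), 9230105E05Rik (0.992) and Gm36974 (0.988). Lcn5 was most like Epp13 (0.972), Defb30 (0.970) and Defb21 (0.957). Lcn12 had no close match, with Rarres1 (0.842), Pate6 (0.838) and Inmt (0.835) nearest. Among the members, Lcn8 and Lcn9 correlated at 0.998, Lcn8 and Lcn5 at 0.501 and Lcn8 and Lcn12 at 0.0651. The sums share libraries and depth, and how much of their spread lies between segments was not computed.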

How the data were processed

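Single-cell libraries (Singleron GEXSCOPE) of caput, corpus and cauda at 42 and 56 days were used as 1 deposited table of UMI counts per gene and barcode. The authors aligned reads with STAR 2.7.3a to GRCm38 and counted molecules with UMI-tools; the values are whole-number counts that they had not normalized. The members and lists were chosen with earlier results of these data known. Cells with 300 to 4000 genes, at most 20000 UMIs and at most 50% mitochondrial UMIs were kept (42087 cells), and a globin-rich cluster of 662 cells was removed together with the globin genes. Doublets were removed only by these limits, and no caller was run. Cells were clustered by principal components and the Leiden method (leidenalg 0.10.2, resolution 1) without lipocalin genes, and named from markers. A cluster took another population's name where the mean log2 fold of its markers was at least 1 and at least 3 were doubled. Otherwise it was called principal where at least 3 principal markers of at least 20 CPM were 1.25-fold over non-epithelial cells, a threshold chosen after seeing the data, because principal transcripts were found in all cells. A name was withdrawn where more markers of another population were among the top 10 genes, or where cell cycle genes led. Clusters of 4451 cells stayed unnamed, among them a low-UMI cluster of 1704 cells, of which 1659 came from the P42 cauda. This cluster passed the principal rule with 10 markers. Its name was withdrawn because 3 myoid and fibroblast markers were among its top 10 genes. Named genes were the 7 members, for each the 3 genes most like it, listed lipocalins and receptors of at least 50 CPM, and the 10 highest other genes of caput principal cells. Genes between Obp2a and Lcn9 were named after their values were seen.

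Raw counts were summed per library and population and tested with edgeR 4.0.16 (glmQLFit, glmQLFTest, TMM, filterByExpr, R 4.3.3) with Benjamini-Hochberg adjustment over all genes tested. SE is the fitted change divided by the root of F. Segments were compared with the pool as a block, since a pool's libraries share their mice; deviations of same-pool libraries correlated at 0.132 to 0.719 in 9 of 9 pairs, and those of different pools exceeded 0.1 in 4 of 18. Ages were compared within a segment with 1 P42 library. The age fits had no term for the pool, so libraries of a pool were treated as independent in them. The tests were checked on simulated data. Alternatives were DESeq2 1.42.0, no filter, TMM factors of 1, totals without members or mitochondrial genes, other cell limits, another resolution and left-out pools.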

Additional observations from a re-analysis of the deposited data

Results flagged for a closer look

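The age effect of 4 members differed between caput and cauda in all cells by an interaction term in edgeR, beside 18.4% of all genes. This fit had no term for the pool, although caput and cauda libraries of a pool share their mice. All P42 libraries came from the same pool, so age and pool cannot be told apart in it. The difference, caput minus cauda on the log2 scale, was -2.36 for Lcn12, 1.99 for Lcn8, 1.94 for Lcn6 and 1.61 for Lcn10, with adjusted p of 0.00884, 0.0333, 0.0427 and 0.0170. Without cells over 10000 UMIs 3 were called (16.2% of genes) and Lcn6 was not (adjusted p = 0.0539), while DESeq2 called 5 (16.3%) and edgeR without a filter on low counts 6 (14.4%). Lcn8, Lcn6 and Lcn10 in the cauda lay at 32.1 CPM or less in every library.

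In principal cells the same difference was -2.59 for Lcn12, 4.98 for Lcn6, 4.20 for Lcn8 and 3.83 for Lcn9. Of all genes tested, 7.7% were called for it. The median change of all genes between ages in cauda principal cells was 1.37, so these differences are not relative to an unchanged bulk of genes. They rest on 53 cells of the P42 cauda, which held 33 UMIs of Lcn8, 37 of Lcn9, 6 of Lcn6 and 35 of Lcn12. No segment at a given age had the 4 samples needed to look for outlying libraries.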

How the results depend on the processing

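Between segments, the number of members called in all cells was 6 or 7 under every alternative, beside 3.2% to 40% of genes, and in principal cells 7, or 6 without the first or the second P56 pool (20.4% and 26.5% of genes), beside 24.9% to 43.8% of genes under the others. Without the replicate block it was 6 in all cells (18.1%) and 7 in principal cells (36.6%), and the block changed no call of a member. Between ages in all cells, DESeq2 called 1 member in the caput (4.63% of genes), and without a filter on low counts 2 were called in the caput (5.67%) and 2 in the corpus (8.24%), and 1 for the difference between caput and corpus (1.65%). With TMM factors of 1, which left the median of all genes at -0.82, 6 were called in the cauda, beside 39.5% of genes. In corpus principal cells 1 was called with DESeq2 (1.77% of genes), without the filter (2.67%) or with TMM factors of 1 (7.28%). A fit of segment plus age, chosen after seeing the data for all libraries, gives a common age change for the 3 segments. It called 0 members, as it did without P56 replicate 1 or 2 (range 0 to 0). For all libraries it called 15.6% of genes in all cells and 1.78% in principal cells, with 1 and 0 members at an unadjusted p under 0.05 (41.4% and 20.2% of genes), and without a P56 pool 0% and 0% in all cells and 0.302% and 0.842% in principal cells. The causes were not tested, except that the additive fit averages the 3 segments. Among the changes compared between settings, no called change of a named member turned its direction under an alternative. For ages in cauda principal cells only Lcn12 was compared in this way. Differences of the age effect between segments were not compared for direction. The age changes of Lcn12 and Lcn6 in the caput in all cells, 0.05 and 0.22 and not called, were -0.35 and -0.18 with TMM factors of 1. Of the changes compared between settings, 12 became and 9 ceased to be called. Adding the low-UMI cluster of the P42 cauda or leaving out the mixed principal subpopulation, both chosen after seeing the data, kept 7 members called between segments in principal cells. The unweighted mean over the 4 non-epithelial populations of the caput Lcn8 level relative to principal cells, 91.5% (SD 28.0, n = 3), and the correlations of Lcn8 with Lcn5 (mean -0.54) and Lcn9 (0.83) moved by less than 1 SD under their alternatives. Counts were low in the cauda, where Lcn6, Lcn10 and Obp2a had at most 72 UMIs in a library. Its libraries together held 95278775 UMIs, against 95538349 in the caput.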
